A study of Mus musculus with 12 samples.

Results

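Fgr, Lyn, Btk, Syk, Plcg2, Inpp5d and Vav1 encode a signalling module of myeloid and B lineage cells. Its chromatin was described here through the open regions at the 7 genes: every region of the ATAC-seq count table that overlapped the body of one of these genes or the 20 kb on either side of it (GRCm38, GENCODE M21). This rule took 158 of the 121336 regions of the table. Plcg2 held 37 of them, Lyn 27, Syk 26, Inpp5d 22, Vav1 21, Fgr 14 and Btk 11. All 158 passed the filter on low counts, which removed 0 regions. A window is defined by position alone, so a region in it need not act on that gene. The windows of Fgr and Btk also held promoters of neighbours, that of Ahdc1 in the first and those of Gla, Hnrnph2, Rpl36a and Timm8a1 in the second.

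Accessibility was measured in LSK, the early progenitor gate that includes the stem cells (Lin- Sca-1+ c-Kit+), and in GMP, the granulocyte-monocyte progenitors (Lin- Sca-1- c-Kit+ Cd16/32+), both sorted from mouse bone marrow after enrichment for c-Kit. The mice were young adult littermates on a C57BL/6 background, either wild type (WT) or UREd/d. UREd/d mice lack an upstream regulatory element at Spi1, which encodes the myeloid and B lineage transcription factor PU.1, in every cell, and were taken before they developed leukemia. They are called URE here. The genotypes and cell types made 4 groups of 3 libraries (named WT-LSK, WT-GMP, URE-LSK, URE-GMP below), from 3 mice per genotype and cell type per the study's methods. The sorted cells are mixtures, so fewer cells with an open region and less opening per cell cannot be told apart.

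The libraries held 23072701 to 62204826 counts, and the 158 regions took 0.120% to 0.153% of them. The region at the deleted element had 36.0 to 46.2 CPM (counts scaled to a common library total) in the 6 WT libraries and at most 6 counts in any URE library. Of the marker genes of GMP, 6 of 7 had a region at a start site, with a summed level that was 80.1 CPM in WT-LSK and rose to 286 in WT-GMP, and 8 of 9 LSK marker genes had one, with 368 and 287 CPM. In the LSK list Kit (38.1 CPM in WT-LSK and 39.5 in WT-GMP) and Procr (6.80 and 7.76) did not fall. The others did, and Mecom (113 and 98.9) had the highest level. Fcgr3 and Ly6a, which the gates rest on, had no region at a start site. Regions at the start sites of Cpa3 and Mcpt8, markers of mast cells and basophils, together had 9.19 CPM in LSK of WT mice against 27.3 in URE, and in GMP 11.2 against 28.8, and their part in the results below was not tested. The B cell markers Pax5 and Cd79a had no region at a start site. Counts on chromosome Y were 653 to 1684 in WT replicate 1 and URE replicates 1 and 3 of both cell types and 0 to 9 in the other libraries, so the genotype groups mix sexes unequally. This bears on Btk, the only member on chromosome X, which held 1.46% to 1.68% of the counts of each library.

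As background, Src-family kinases such as Lyn and Fgr sit at the inner face of the membrane and phosphorylate the tyrosine motifs of receptor chains when a receptor is engaged. Syk binds these motifs and phosphorylates adaptors, Btk is recruited through the lipid PIP3, and together they activate Plcg2, the phospholipase that releases calcium and diacylglycerol signals. Vav1 is an exchange factor for Rac GTPases downstream of Syk, and Inpp5d (SHIP1) removes a phosphate from PIP3 and so restrains Btk and its neighbours. In myeloid cells the module carries signals from Fc receptors, integrins and growth factor receptors.

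The sequences below come from some of the regions on which the results turn, read from the plus strand of GRCm38. They are the middle 300 bases of a region, the whole region where it is shorter, or the 300 bases that hold a full PU.1 motif. The letters GAGGAAGT of a common PU.1 motif, and the shorter GAGGAA it contains, are in capitals on either strand (TTCCTC is the reverse complement of GAGGAA). The first was strongly lost in both cell types and lies in an intron of Plcg2 (chr8:117507744-117507998).
Plcg2 intron: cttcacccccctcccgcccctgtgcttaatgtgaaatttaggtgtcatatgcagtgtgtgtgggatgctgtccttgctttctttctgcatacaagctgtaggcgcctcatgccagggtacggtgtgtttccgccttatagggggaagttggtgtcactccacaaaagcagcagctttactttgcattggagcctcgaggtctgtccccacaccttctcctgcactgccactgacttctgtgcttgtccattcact
The next pair were lost in LSK and much less in GMP, and lie in an intron of Lyn (chr4:3758935-3759234) and beyond the end of Vav1 (chr17:57347075-57347374).
Lyn intron: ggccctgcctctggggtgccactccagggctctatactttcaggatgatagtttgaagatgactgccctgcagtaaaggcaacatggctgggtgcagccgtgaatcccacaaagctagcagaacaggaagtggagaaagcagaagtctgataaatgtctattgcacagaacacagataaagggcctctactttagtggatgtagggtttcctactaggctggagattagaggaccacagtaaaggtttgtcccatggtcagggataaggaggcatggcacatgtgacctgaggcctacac
beyond Vav1: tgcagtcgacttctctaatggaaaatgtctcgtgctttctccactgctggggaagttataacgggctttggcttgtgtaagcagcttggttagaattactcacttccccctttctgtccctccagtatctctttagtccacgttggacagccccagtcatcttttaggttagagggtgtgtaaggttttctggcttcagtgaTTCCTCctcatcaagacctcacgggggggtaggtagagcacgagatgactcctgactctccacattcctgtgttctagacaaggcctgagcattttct
The intron region of Btk (chrX:134566807-134567106) was lost in both cell types and holds the full motif. The last pair are intron regions 18.1 and 23.1 kb into Inpp5d, with a region that was not called between them. They moved in opposite directions, the first lost (chr1:87638274-87638573) and the second gained (chr1:87643261-87643560).
Btk intron: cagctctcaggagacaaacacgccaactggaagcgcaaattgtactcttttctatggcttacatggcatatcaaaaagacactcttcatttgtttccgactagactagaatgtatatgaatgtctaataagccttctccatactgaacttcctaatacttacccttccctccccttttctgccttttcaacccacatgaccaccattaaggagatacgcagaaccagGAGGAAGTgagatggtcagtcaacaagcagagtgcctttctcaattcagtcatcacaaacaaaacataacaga
Inpp5d intron, lost: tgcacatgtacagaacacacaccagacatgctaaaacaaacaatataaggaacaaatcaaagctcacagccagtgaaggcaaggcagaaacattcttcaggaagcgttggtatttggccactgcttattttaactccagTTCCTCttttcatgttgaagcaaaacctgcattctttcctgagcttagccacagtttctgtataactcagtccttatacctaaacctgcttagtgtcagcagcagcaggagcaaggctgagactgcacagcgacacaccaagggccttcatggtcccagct
Inpp5d intron, gained: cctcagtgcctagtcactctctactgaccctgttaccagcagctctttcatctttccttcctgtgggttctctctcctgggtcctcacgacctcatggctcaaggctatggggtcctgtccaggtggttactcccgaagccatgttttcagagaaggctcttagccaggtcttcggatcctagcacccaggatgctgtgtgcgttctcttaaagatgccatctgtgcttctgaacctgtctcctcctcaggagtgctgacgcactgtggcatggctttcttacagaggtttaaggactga

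Where regions at the 7 genes were called in URE-LSK, most had lost accessibility. In LSK 63 of the 158 regions were called between URE and WT, 51 lower and 12 higher in URE. A region was called when edgeR's quasi-likelihood test gave a Benjamini-Hochberg adjusted p under 0.05 over all regions and the absolute log2 fold change was over 1. A value printed with its SE and adjusted p is a log2 fold change of URE against WT unless another contrast is named. Of all regions, 37.5% were called in this comparison, 23.9% lower and 13.6% higher. The 158 regions had 32.3% called lower and 7.59% higher, so the sum of calls was close to the background (39.9%) while the calls leaned further to loss. In GMP 58 regions were called, 38 lower and 20 higher, against 39.7%, 24.1% and 15.6% of all regions. With 24.1% lower, the members were at the background there. Start sites are seldom called, and 145 of the 158 regions lay outside them. Of these, 33.1% were lower and 8.28% higher in LSK, against 27% and 15.4% of all regions outside start sites. In GMP 24.8% were lower and 13.8% higher, against 27% and 17.7%. With counts adjusted for GC content, 47 regions were lower and 20 higher in LSK, and 32 lower and 29 higher in GMP. The lower share of the calls fell over the whole table too, from 63.8% to 49.3% in LSK and from 60.6% to 50.1% in GMP. With loess offsets by abundance the numbers were 46 and 22 in LSK, and 32 and 28 in GMP.

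**Figure D1:**
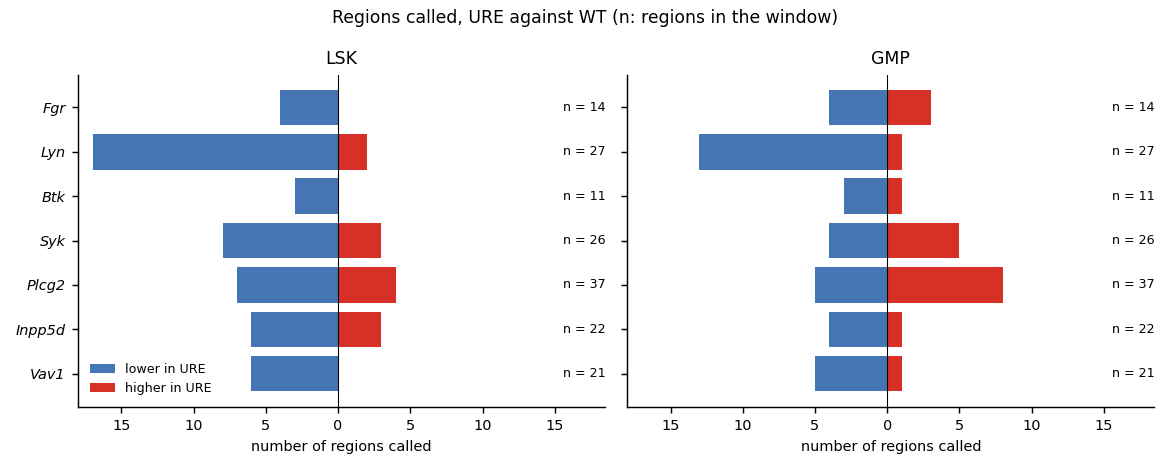
Number of regions called lower (blue, to the left) and higher (red, to the right) in URE than in WT, for each gene window, in LSK (left panel) and GMP (right panel), with n the regions in the window. Lyn had 17 of 27 regions lower in LSK and 13 in GMP, and Plcg2 had the most regions higher in GMP, 8 of 37.

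Lyn, the Src-family kinase with both activating and inhibitory roles in myeloid and B cells, had the most widespread loss (chr4:3678115-3813122, plus strand). In LSK 17 of its 27 regions were lower and 2 higher, with a median log2 fold change of -1.68 against 0.14 over all regions. In GMP 13 were lower and 1 higher, with a median of -0.71. Of the 17 lost in LSK, 10 were lost in GMP too and 7 were not called there, and at all 7 the change differed between the cell types (interaction called). The promoter was not among the changes. It had 31.1, 34.4 and 35.7 CPM in WT-LSK and 38.5, 41.1 and 37.6 in URE-LSK, a log2 fold change of 0.21 ± 0.11 (SE, adjusted p = 0.125), and -0.094 ± 0.11 (SE, adjusted p = 0.488) in GMP.

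The intron region 81.0 kb into Lyn had the smallest interaction p of the gene. It had 6.40, 6.89 and 7.26 CPM in WT-LSK and 0.381, 0.670 and 0.534 in URE-LSK. In GMP it had 8.58, 9.23 and 9.68 in WT and 4.95, 6.57 and 5.23 in URE. The URE-LSK libraries were thus almost closed, while the URE-GMP libraries kept most of the signal and still lay below every WT-GMP library. The log2 fold change was -3.70 ± 0.22 (SE, adjusted p = 5.07e-09) in LSK and -0.71 ± 0.18 (SE, adjusted p = 0.00273) in GMP, and the difference between them 2.99 ± 0.28 (SE, adjusted p = 1.39e-05). Nearer the promoter, 5.1 kb into the gene (chr4:3682877-3683511), a stronger region fell from 10.5 ± 1.89 to 1.01 ± 0.440 CPM (SD, n = 3) in LSK, a log2 fold change of -3.40. In GMP it had 33.3, 29.3 and 24.5 CPM in WT and 19.95, 24.01 and 16.96 in URE, a log2 fold change of -0.51 ± 0.20 (SE, adjusted p = 0.0401) that was not called. This region was chosen for its level after its values were seen, as was the region near the end of Lyn (chr4:3812465-3812843), at 4.41 ± 1.12 and 0.574 ± 0.277 CPM in LSK and at 6.37 ± 2.23 and 7.84 ± 1.80 in GMP. At the latter the 3 URE-GMP libraries (7.23, 9.87 and 6.42) overlapped the WT-GMP libraries (7.20, 8.08 and 3.85), and the difference between cell types was 3.22 ± 0.48 (SE, adjusted p = 0.000371).

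Other regions of Lyn closed in both cell types. The largest fold change in LSK was at a coding exon 65.3 kb into the gene (chr4:3743278-3743534), with 4.01, 4.85 and 4.18 CPM in WT and 0.119, 0.140 and 0.128 in URE, which rest on 5, 5 and 6 counts. The log2 fold change was -5.05 ± 0.39 (SE, adjusted p = 4.14e-08), and for GMP -2.97 ± 0.34 (SE, adjusted p = 2.54e-06). The difference between them, 2.07 ± 0.55 (SE, adjusted p = 0.0168), was lost without URE-GMP replicate 2, where it was 1.27. The largest fall in GMP was 88.4 kb into the gene (chr4:3766381-3766745), from 4.56, 6.48 and 5.81 CPM in WT to 0.237, 0.694 and 0.315 in URE, -3.71 ± 0.46 (SE, adjusted p = 5.21e-06). The largest gain in LSK lay upstream of Lyn (chr4:3659973-3660320), in an intron of another gene and nearest to the start site of 2210414B05Rik. It rose from 3.78, 4.53 and 2.65 to 13.4, 13.4 and 11.98 CPM in LSK, 1.84 ± 0.19 (SE, adjusted p = 6.63e-07), and had 7.91, 7.18 and 5.85 in WT against 7.71, 7.62 and 7.95 in URE for GMP, where it was not called (0.16).

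Fgr, the Src-family kinase of mature granulocytes and monocytes (chr4:132974095-133001910, plus strand), had 4 of 14 regions lower and 0 higher in LSK, and 4 lower and 3 higher in GMP. The same 4 regions were lower in both cell types. The intron region 15.1 kb into the gene (chr4:132988970-132989418), had the largest fold change of all 158 regions in LSK. It had 6.22, 7.55 and 6.64 CPM in WT-LSK and 0.0952, 0.167 and 0.0427 in URE-LSK, the latter from 4, 6 and 2 counts. In GMP the values were 4.64, 5.43 and 4.68 in WT against 0.344, 0.590 and 0.170 in URE. No library of URE overlapped WT, which was a condition of the rule by which this region was named. The log2 fold change was -6.08 ± 0.40 (SE, adjusted p = 9.21e-09) in LSK and -3.68 ± 0.32 (SE, adjusted p = 2.08e-07) in GMP. Fgr has 2 promoter regions. The weaker one, described after its values were seen, at the annotated start of the gene (chr4:132973993-132974252) fell from 4.79 ± 0.242 to 1.52 ± 0.162 CPM in LSK, -1.66 ± 0.21 (SE, adjusted p = 4.99e-06), and from 3.95 ± 0.377 to 1.76 ± 0.410 in GMP, -1.16 ± 0.20 (SE, adjusted p = 0.000142). The stronger one, 2.8 kb further in (chr4:132976658-132977173), holds the full PU.1 motif. It had 11.02, 9.02 and 9.15 CPM in WT-LSK and 6.40, 6.89 and 5.55 in URE-LSK, and its log2 fold changes of -0.63 ± 0.16 (SE, adjusted p = 0.00263) and -0.76 ± 0.15 (SE, adjusted p = 0.000551) passed the p threshold but not the fold threshold. In GMP an intron region 10.4 kb into Fgr (chr4:132984320-132984597) was higher, 0.628, 0.629 and 0.392 CPM in WT against 2.26, 2.58 and 1.74 in URE, 2.01 ± 0.33 (SE, adjusted p = 7.72e-05). In LSK the means were 0.373 and 0.381 CPM.

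**Figure D2:**
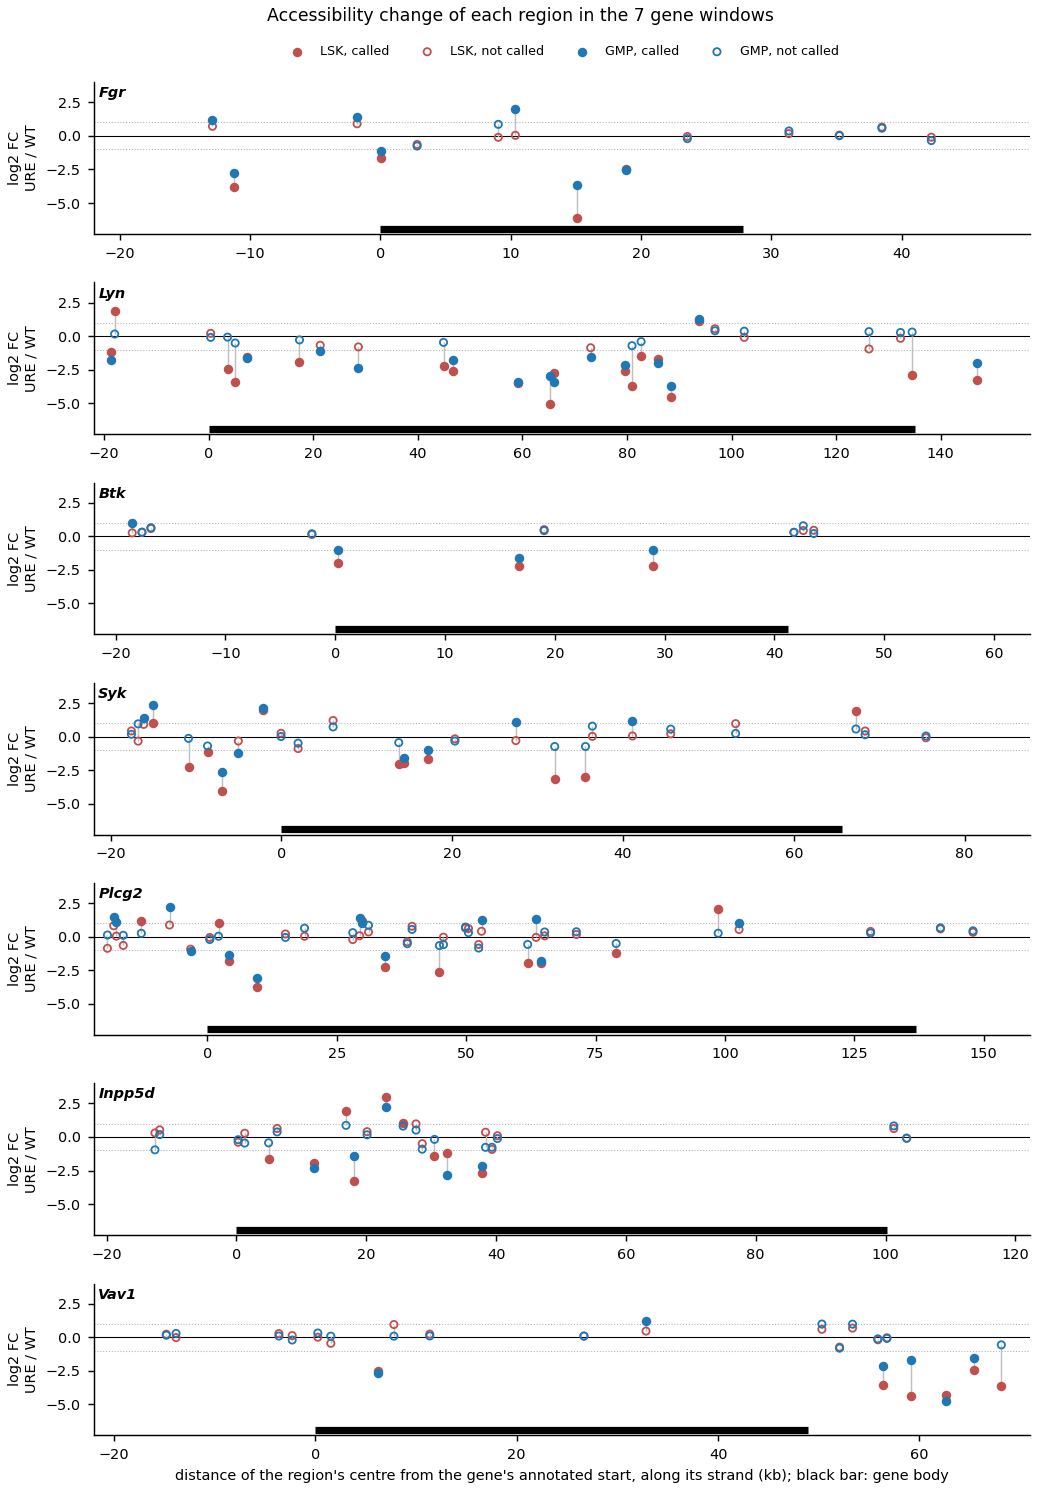
log2 fold change (URE against WT) of each of the 158 regions, plotted at the distance of its centre from the annotated start of the gene along its strand, in kb, with LSK in red and GMP in blue, filled where called, a grey line joining both values of a region, and a black bar for the gene body. The losses spread along Lyn, gather at the far end of the Vav1 window, and reach -6.08 in Fgr, while of the regions at 0 kb those of Btk and Fgr are lower.

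Syk, the kinase that reads phosphorylated receptor motifs (chr13:52583173-52648792, plus strand), lost regions in LSK that stayed open in GMP. In LSK 8 of its 26 regions were lower and 3 higher. In GMP 4 were lower and 5 higher. Of the 8 lost in LSK, 5 were not called in GMP, and 4 of these had a called interaction. The most accessible of them in WT-LSK was the region 10.9 kb upstream of Syk (chr13:52571704-52572873). The WT-LSK libraries had 35.9, 41.3 and 35.3 CPM there, against 5.52, 8.46 and 8.80 in URE-LSK. For GMP the values were 56.7, 43.9 and 40.5 in WT against 41.7, 47.8 and 38.8 in URE. In LSK every URE library was below every WT library, and in GMP the libraries overlapped. The log2 fold change was -2.30 ± 0.16 (SE, adjusted p = 1.87e-08) in LSK and -0.13 ± 0.15 (SE, adjusted p = 0.457) in GMP, a difference of 2.17 ± 0.22 (SE, adjusted p = 2.4e-05). Inside the gene, 2 intron regions (chr13:52614868-52615485 and chr13:52618614-52618944) moved alike, at -3.16 and -3.03 in LSK and -0.74 and -0.74 in GMP on the log2 fold change scale. They were described after their values were seen.

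The promoters of Syk were unequal. At the main promoter (chr13:52582489-52583762) the log2 fold change was 0.24 ± 0.12 (SE, adjusted p = 0.0858) in LSK and 0.006 ± 0.11 (SE, adjusted p = 0.967) in GMP. The internal start site 13.7 kb downstream (chr13:52596656-52597168) had 16.95, 16.1 and 16.3 CPM in WT-LSK and 3.74, 4.88 and 3.42 in URE-LSK, -2.04 ± 0.17 (SE, adjusted p = 6.24e-08), and, for GMP, 15.3, 15.1 and 14.3 in WT against 11.4, 12.6 and 8.70 in URE, -0.45 ± 0.16 (SE, adjusted p = 0.0214). The interaction there was 1.59 ± 0.23 (SE, adjusted p = 0.000279). An intron region 41.1 kb into Syk (chr13:52624072-52624495) went the other way in GMP. It rose from 9.79, 12.8 and 8.83 to 25.2, 23.5 and 23.2 CPM, 1.19 ± 0.15 (SE, adjusted p = 7.16e-06), while the LSK levels were 6.47 ± 0.820 in WT and 6.66 ± 0.532 in URE (0.043). The second start site and this intron region were chosen after their values were seen. The region 7.0 kb upstream (chr13:52576077-52576312) was the largest loss by fold in both cell types, from 1.37 ± 0.334 to 0.0818 ± 0.0382 CPM for LSK and, for GMP, from 2.92 ± 0.633 to 0.450 ± 0.218. The gain at 67.3 kb, just past the end of the gene, was 1.92 ± 0.28 (SE, adjusted p = 2.31e-05) in LSK, from 0.997, 0.816 and 1.07 to 4.28, 3.07 and 3.65 CPM.

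Btk, the Tec-family kinase (chrX:134542336-134583570, minus strand), was the only one of the 7 genes whose main promoter was called, and it was lower in both cell types. The promoter region (chrX:134582825-134583751) had 11.6, 12.8 and 12.2 CPM in WT-LSK and 2.64, 4.10 and 2.39 in URE-LSK. For GMP the values were 17.9, 13.8 and 14.5 in WT against 7.10, 9.49 and 5.65 in URE. WT and URE did not overlap in either cell type. The log2 fold change was -2.01 ± 0.22 (SE, adjusted p = 1.33e-06) in LSK and -1.05 ± 0.21 (SE, adjusted p = 0.000435) in GMP, and the difference of 0.96 ± 0.30 (SE, adjusted p = 0.039) was under the fold threshold. The GMP value lies at that threshold too. It was -0.89 without URE-GMP replicate 3, -0.97 without WT-GMP replicate 1, -0.996 with DESeq2 and -0.76 with GC content offsets, each no longer called, with adjusted p between 5.05e-06 and 0.00423 in those fits. The intron region with the PU.1 motif, 16.7 kb into the gene, had 2.34, 1.92 and 2.49 CPM in WT-LSK and 0.476, 0.363 and 0.641 in URE-LSK, -2.17 ± 0.34 (SE, adjusted p = 5.5e-05), and, for GMP, 6.48, 6.88 and 5.65 in WT against 1.55, 3.37 and 1.33 in URE, -1.59 ± 0.29 (SE, adjusted p = 0.000211). A weak region at a coding exon 28.9 kb into Btk (chrX:134554523-134554729) was the third and last loss and was described after its values were seen, with -2.19 and -1.04. The other 8 regions of the window were not lower, and none of the 11 had a called interaction. The median log2 fold change of chromosome X was 0.14 in LSK and 0.069 in GMP, against 0.14 and 0.055 over all regions. Minus the median of the chromosome, the promoter was at -2.14 and -1.12.

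Plcg2, the phospholipase at the end of the kinase chain (chr8:117498291-117635142, plus strand), had mixed changes. In LSK 7 of its 37 regions were lower and 4 higher, and in GMP 5 were lower and 8 higher. The promoter (chr8:117498125-117499358) had 35.2, 31.9 and 31.6 CPM in WT-LSK and 35.1, 31.9 and 28.3 in URE-LSK, -0.051 ± 0.13 (SE, adjusted p = 0.742), and -0.21 ± 0.12 (SE, adjusted p = 0.166) in GMP. An intron region 44.8 kb into the gene with the full PU.1 motif (chr8:117542935-117543271) had 9.39, 9.51 and 9.67 CPM in WT-LSK and 0.761, 2.15 and 1.75 in URE-LSK, -2.62 ± 0.27 (SE, adjusted p = 5.44e-07). In GMP it had 8.87, 7.68 and 9.17 in WT against 5.36, 6.19 and 4.72 in URE, -0.66 ± 0.24 (SE, adjusted p = 0.0275), and the effects differed by 1.96 ± 0.35 (SE, adjusted p = 0.00157). The intron region of the sequence above, 9.6 kb in, was lost in both, -3.76 in LSK and -3.09 in GMP.

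Among the gains at Plcg2, the intron region 98.7 kb into the gene (chr8:117596727-117597213) rose from 2.60, 4.20 and 4.56 CPM in WT-LSK to 16.3, 13.4 and 17.2 in URE-LSK, 2.05 ± 0.34 (SE, adjusted p = 7.78e-05). In GMP the WT and URE libraries overlapped, with 3.93, 2.92 and 7.08 in WT against 4.28, 3.94 and 8.65 in URE. The interaction of -1.78 ± 0.47 (SE, adjusted p = 0.0159) no longer passed when WT-GMP replicate 3 was left out (-1.23, adjusted p = 0.0614) or when WT-LSK replicate 1 was (-1.51, adjusted p = 0.0599). In GMP the largest gain lay 7.3 kb upstream (chr8:117490824-117491090), from 1.21, 1.09 and 0.323 to 4.33, 4.42 and 3.46 CPM, 2.25 ± 0.36 (SE, adjusted p = 6.56e-05), at a region with a mean of 0.0977 CPM in WT-LSK and 0.178 in URE-LSK.

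Vav1, the Rac exchange factor (chr17:57279100-57328031, plus strand), had 6 lower and 0 higher of 21 regions in LSK and 5 lower and 1 higher in GMP, and the 5 lower in GMP were all lower in LSK too. The promoter (chr17:57278746-57279977) had 31.9, 34.3 and 35.7 CPM in WT-LSK and 34.001, 33.97 and 34.03 in URE-LSK, and in GMP 28.9 ± 0.354 against 35.9 ± 1.52. Neither was a called change. The GMP value, 0.31 ± 0.077 (SE, adjusted p = 0.00243), passed the p threshold but not the fold threshold. A single intron region 6.2 kb into the gene (chr17:57285069-57285535) fell from 2.97, 3.22 and 2.27 to 0.381, 0.670 and 0.406 CPM in LSK and from 7.40, 6.48 and 5.67 to 0.840, 1.34 and 0.848 in GMP, log2 fold changes of -2.54 and -2.67. It was described after its values were seen.

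The other 5 lost regions lay 7.4 to 19.2 kb beyond the end of Vav1. Their nearest start site is that of Adgre1, the gene of the macrophage marker F4/80, 11.2 to 23.1 kb away. Which gene they act on was not tested. In LSK the log2 fold changes of the 5 were between -4.38 and -2.45. The strongest by level (chr17:57344058-57344869), chosen after the values were seen, fell from 26.1, 27.6 and 24.4 to 4.997, 3.94 and 5.25 CPM in LSK and from 29.3, 26.2 and 26.6 to 9.06, 9.61 and 9.06 in GMP, -2.45 ± 0.13 (SE, adjusted p = 1.91e-09) and -1.56 ± 0.12 (SE, adjusted p = 7.47e-08). The farthest (chr17:57346949-57347500) had 8.06, 14.03 and 8.97 CPM in WT-LSK and 0.547, 1.09 and 0.812 in URE-LSK, whereas GMP had 24.6, 24.4 and 20.4 in WT against 15.6, 18.6 and 12.5 in URE. This was a log2 fold change of -3.66 ± 0.27 (SE, adjusted p = 2.14e-08) in LSK and -0.57 ± 0.21 (SE, adjusted p = 0.0283) in GMP, a difference of 3.09 ± 0.34 (SE, adjusted p = 3.86e-05). The region 13.7 kb beyond the end (chr17:57341556-57341910) closed in both, and had the largest fall of all 158 regions in GMP, from 5.98, 5.81 and 6.57 to 0.172, 0.347 and 0.145 CPM, -4.72 ± 0.38 (SE, adjusted p = 1.05e-07). The marker list of mature neutrophils and macrophages had 9.36 CPM in LSK of WT mice against 6.32 in URE, and in GMP 21.6 against 20.5. This sums the regions at Adgre1 and Cxcr2, as Ly6g had none. The Adgre1 region alone had 5.14 ± 1.06 CPM (SD) in WT-LSK and 2.99 ± 1.11 in URE-LSK. In GMP it had 12.3 ± 0.576 in WT and 13.3 ± 0.520 in URE. The part of such cells in these losses was not tested.

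Inpp5d, the lipid phosphatase (chr1:87620312-87720507, plus strand), held the largest gain of the 158 regions in LSK. In LSK 3 of its 22 regions were higher and 6 lower, and in GMP 1 was higher and 4 lower. The region 23.1 kb into the gene (chr1:87643147-87643674) was nearly closed in WT, with 0.787, 0.979 and 0.945 CPM in LSK and 0.711, 0.818 and 1.08 in GMP. In URE it had 8.35, 6.53 and 7.03 in LSK and 4.41, 3.26 and 4.65 in GMP. The log2 fold change was 3.02 ± 0.23 (SE, adjusted p = 3.17e-08), an 8.09-fold rise, in LSK and 2.21 ± 0.23 (SE, adjusted p = 9.25e-07) in GMP. A broad region 16.9 kb into the gene (chr1:87636487-87637912), picked for its level after its values were seen, rose from 19.1, 17.3 and 13.2 to 67.8, 60.1 and 56.9 CPM in LSK, 1.90 ± 0.15 (SE, adjusted p = 3.44e-08). In GMP it had 20.1, 14.5 and 15.03 in WT against 29.1, 27.5 and 33.3 in URE, 0.87 ± 0.14 (SE, adjusted p = 8.12e-05), and the difference was -1.03 ± 0.20 (SE, adjusted p = 0.00259).

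Between these gains, 18.1 kb into Inpp5d (chr1:87638219-87638629), a region was lost. It had 12.2, 11.2 and 11.3 CPM in WT-LSK and 0.523, 2.18 and 1.004 in URE-LSK, -3.25 ± 0.34 (SE, adjusted p = 8.39e-07), and, for GMP, 9.79, 8.08 and 8.94 in WT against 3.04, 4.25 and 2.50 in URE, -1.44 ± 0.31 (SE, adjusted p = 0.000838). The region 32.4 kb in (chr1:87652375-87653019) was the largest loss of the gene in GMP, from 5.73, 4.43 and 3.55 to 0.581, 0.815 and 0.509 CPM, -2.81 ± 0.29 (SE, adjusted p = 8.84e-07). Its LSK value, -1.16 ± 0.26 (SE, adjusted p = 0.00146), was not called without URE-LSK replicate 3 (-0.90), with GC content offsets (-0.71), with loess offsets (-0.95) or with the replicate block and GC content offsets (-0.77). A region 12.5 kb upstream (chr1:87607413-87608113) had opposite signs, 0.30 ± 0.15 (SE, adjusted p = 0.0981) in LSK and -0.96 ± 0.16 (SE, adjusted p = 7.42e-05) in GMP, neither of them called, and an interaction of -1.26 ± 0.22 (SE, adjusted p = 0.00116). The promoter (chr1:87620027-87621130) was at 31.6 ± 0.593 CPM in WT-LSK and 24.1 ± 3.14 in URE-LSK. Its log2 fold change of -0.39 ± 0.13 (SE, adjusted p = 0.0165) passed the p threshold but not the fold threshold, so it was not called.

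**Figure D3:**
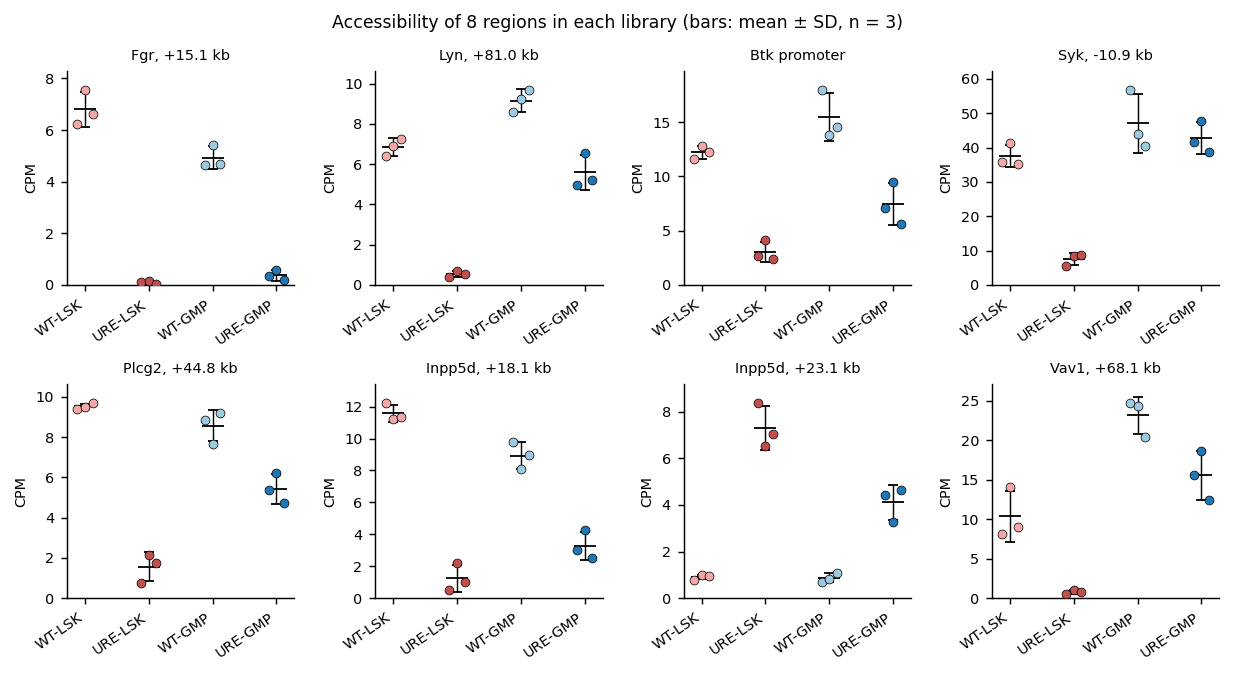
CPM of 8 regions in each of the 12 libraries, in 4 groups on the horizontal axis, with points for libraries and bars for the mean and SD of 3. In Lyn, Syk, Plcg2 and the region beyond Vav1 the URE-LSK libraries are far below WT-LSK while URE-GMP stays closer to WT-GMP, and the Inpp5d region at 23.1 kb is the one that rises.

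The genotype effect differed between LSK and GMP at 33 of the 158 regions, against 14.0% of all regions. At 26 the log2 fold change was higher in GMP (8.96% of all regions) and at 7 it was lower (5.03%). Among the members, 33 regions were lower in both cell types (20.9%, against 18.7% of all regions), 18 lower in LSK without a call in GMP (11.4%, against 5.11%), and 5 lower in GMP without a call in LSK (3.16%, against 5.22%). Of the 18, 16 had a called interaction, and across the table this held for 55.1% of the 6200 regions of that kind. Of 15 regions higher in GMP without a call in LSK, 5 had one (33.3%, against 25.8% over the table), and of 7 higher in LSK without a call in GMP, 5 had one (71.4%, against 29.1%). At 5 regions URE was higher in both cell types, and at 0 regions were the calls opposite. By gene, the interaction was called at 9 regions of Lyn, 8 of Syk, 6 of Plcg2, 6 of Inpp5d, 2 of Fgr, 2 of Vav1 and 0 of Btk.

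**Figure D4:**
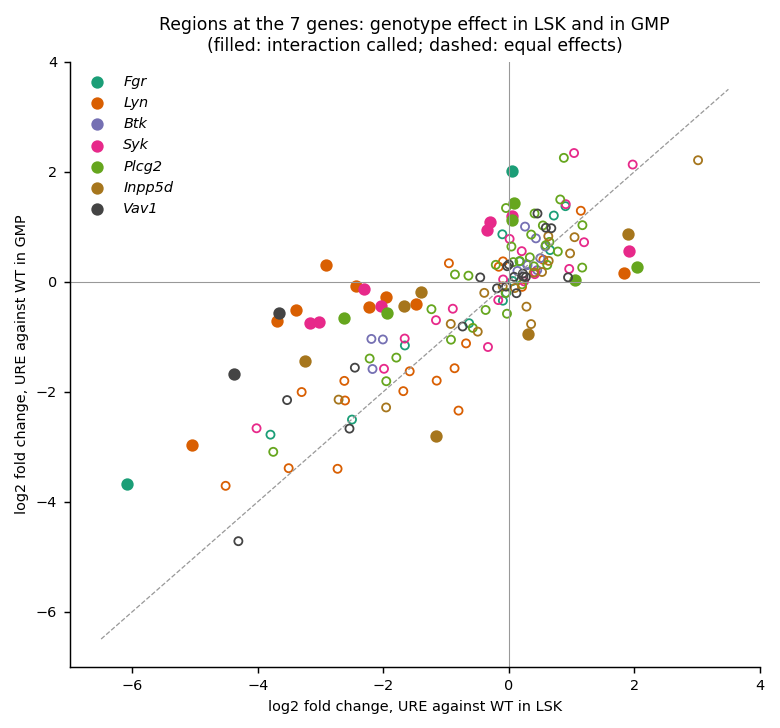
log2 fold change (URE against WT) in LSK on the horizontal axis and in GMP on the vertical axis, 1 point per region coloured by gene, filled where the interaction was called, with a dashed line where both effects are equal. A row of filled points of Lyn, Syk, Plcg2, Inpp5d and Vav1 lies between -4 and -1 in LSK and between -1 and 0.5 in GMP.

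In WT, the windows opened more often than they closed from LSK to GMP. In this step 47 of the 158 were called, with 38 more open and 9 less open in GMP, against 37.8%, 21.0% and 16.8% of all regions. Inpp5d had 0 of 22 called in this step, while Lyn had 10 regions higher and 2 lower and Plcg2 9 and 5. The largest opening was in an intron of Syk 53.2 kb from its start (chr13:52636049-52636678), from 0.604, 1.18 and 0.724 CPM in WT-LSK to 19.9, 20.6 and 12.98 in WT-GMP, 4.46 ± 0.36 (SE, adjusted p = 1.78e-07). This region opened in URE too, from 1.17, 0.809 and 2.65 to 20.4, 23.6 and 18.7 CPM, and neither genotype comparison was called there. At Fgr an intron region 9.0 kb into the gene (chr4:132982774-132983517) rose from 3.11 ± 0.511 to 17.5 ± 2.29 CPM in WT and from 2.86 ± 0.746 to 31.7 ± 4.05 in URE. In URE 84 regions were called in the step, 70 higher and 14 lower, against 49.1%, 27.6% and 21.6% of all regions. Other large openings in WT lay in Lyn 96.8 kb from its start, from 0.420 ± 0.171 to 4.51 ± 1.85 CPM, and 19.3 kb upstream of Plcg2, from 0.128 ± 0.0669 to 1.84 ± 0.598 CPM. A region 12.8 kb upstream of Plcg2 closed, from 1.60 ± 0.535 to 0.372 ± 0.214 CPM, -2.01 ± 0.36 (SE, adjusted p = 0.000184). The steps share their groups with the genotype comparisons, so these counts restate the interaction and are no separate test of it.

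Summed over its window, accessibility fell clearly at Lyn and, in LSK, at Syk. The window counts were summed per gene and tested among the sums of 18410 protein-coding genes, of which 61.3% passed an adjusted p of 0.05 in LSK and 62.6% in GMP, with median log2 fold changes of 0.17 and 0.15. The sum at Lyn was 118, 139.7 and 128 CPM in WT-LSK and 72.7, 80.4 and 73.8 in URE-LSK, -0.76 ± 0.086 (SE, adjusted p = 3.35e-06), and, for GMP, 218, 209 and 181 in WT against 144, 165 and 133 in URE, -0.46 ± 0.085 (SE, adjusted p = 0.000218). At Syk it was 175, 179 and 166 in WT against 113, 107 and 129.6 in URE in LSK, -0.57 ± 0.083 (SE, adjusted p = 3.67e-05), and, for GMP, 258, 223 and 203 in WT against 247, 264 and 233 in URE, 0.12 ± 0.082 (SE, adjusted p = 0.196). At neither gene did the LSK libraries of the genotypes overlap. The difference between the cell types was 0.69 ± 0.12 (SE, adjusted p = 0.000593) for Syk and 0.30 ± 0.12 (SE, adjusted p = 0.0958) for Lyn, so it passed only for the former. Of the fall at Syk in LSK, the region 10.9 kb upstream made up the largest share, 29.9 of 56.7 CPM.

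**Figure D5:**
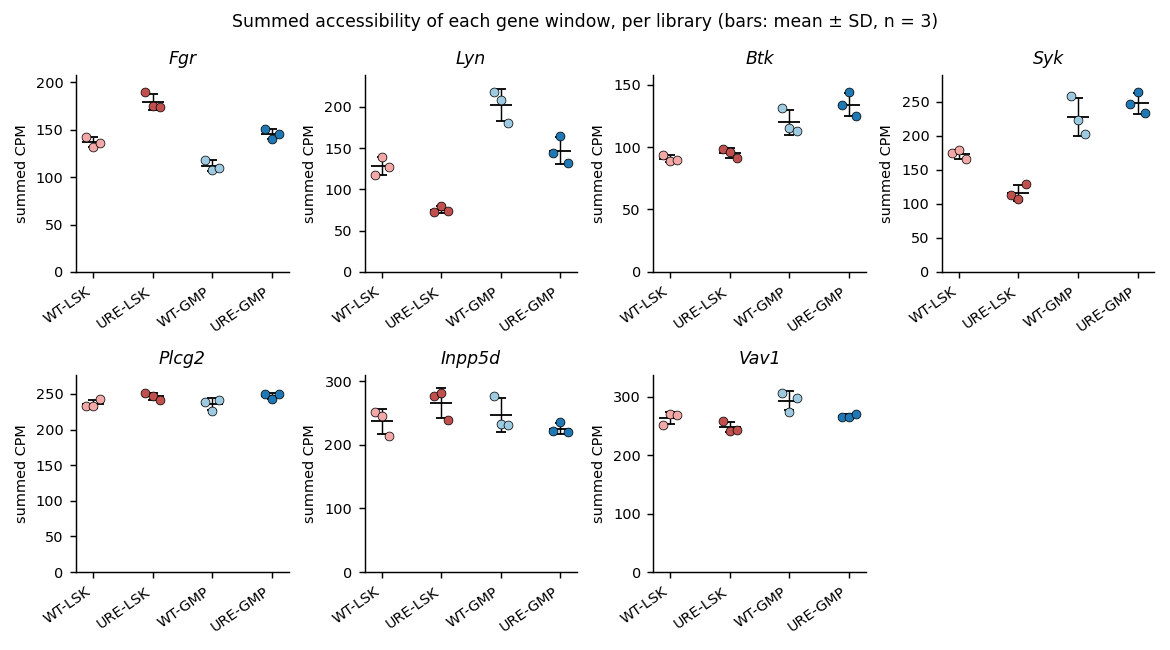
Summed CPM of all regions in each gene window, per library and group, with points for libraries and bars for the mean and SD of 3. The URE-LSK libraries lie below WT-LSK for Lyn and Syk and above for Fgr, whose window holds the promoter of Ahdc1, and the sums of Plcg2 hardly move.

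The sum at Fgr rose, 0.39 ± 0.056 (SE, adjusted p = 3.15e-05) in LSK and 0.38 ± 0.056 (SE, adjusted p = 2.88e-05) in GMP, but most of it was the promoter of Ahdc1. Without regions at start sites of other genes the Fgr sum was 40.6 ± 0.840 CPM in WT-LSK and 27.5 ± 0.317 in URE-LSK, -0.56 ± 0.078 (SE, adjusted p = 1.9e-05), and 54.9 ± 2.89 and 60.5 ± 5.99 in GMP, 0.14 ± 0.076 (SE, adjusted p = 0.119). The Btk sum changed likewise, from 0.069 ± 0.067 (SE, adjusted p = 0.374) to -0.50 ± 0.11 (SE, adjusted p = 0.00101) in LSK, and from 0.16 ± 0.066 (SE, adjusted p = 0.0396) to -0.045 ± 0.10 (SE, adjusted p = 0.721) in GMP. Over the gene bodies alone, the LSK sums changed by -1.18 at Fgr and by -1.56 at Btk on the log2 fold change scale. With start sites of other genes left out, the difference between cell types was 0.70 ± 0.11 (SE, adjusted p = 0.000213) for Fgr and 0.46 ± 0.15 (SE, adjusted p = 0.0323) for Btk. The sums of Plcg2 changed by 0.062 in LSK and 0.07 in GMP and those of Inpp5d by 0.17 and -0.13, and none of these 4 passed. The LSK sum of Inpp5d passed without URE-LSK replicate 3 (0.24, adjusted p = 0.021), without WT-GMP replicate 1 (0.17, adjusted p = 0.0275) and with the replicate block (adjusted p = 0.0215). The GMP sum of Syk passed without WT-GMP replicate 1 (0.22, adjusted p = 0.0112). Vav1 was at -0.088 ± 0.051 (SE, adjusted p = 0.146) and -0.13 ± 0.051 (SE, adjusted p = 0.0316). In GMP the passes of Btk and Vav1 were lost with 7 and 5 of the 12 libraries left out in turn, at log2 fold changes between 0.11 and 0.23 and between -0.18 and -0.10. Per kb of region in WT-LSK, the sums ranged from 12.3 CPM per kb at Lyn to 23.3 at Vav1.

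The PU.1 motif GAGGAAGT, searched on both strands, was in 28 of the 158 regions (17.7%) and in 10.5% of all regions. Within the middle 300 bases, which sets aside the width of a region, the shares were 13.9% and 8.70%. Among the 28, 8 were lower in LSK (28.6%) and 8 in GMP (28.6%), against 51.9% and 47.2% of all regions with the motif. Of the other 130 member regions 43 were lower in LSK (33.1%) and 30 in GMP (23.1%), against 20.7% and 21.3% of all regions without it. Of the 28, 8 lay at a start site, and 0 of these were called in LSK. Outside start sites 8 of 20 were lower in LSK (40.0%), against 56.4% of all such regions. The shorter GAGGAA, which every full match also contains and which was added after the data were seen, was in 83 regions (52.5%, against 46.9% of all). With it, 32 of 83 were lower in LSK (38.6%, against 33.7% of all regions with it) and 3 higher, and without it 19 of 75 were lower (25.3%, against 15.3% of all without it) and 9 higher. The C/EBP motif TTGCNNAA was in 37 regions (23.4%, against 20.5%), the RUNX motif AACCACA in 20 (12.7%, against 17.3%) and the ETS motif CCGGAAGT in 5 (3.16%, against 1.88%). Of the 37 with the C/EBP letters 17 opened from LSK to GMP in WT (45.9%) and 0 closed, against 36.7% and 10.1% of all regions with them. A match describes letters and is no sign that a factor was bound.

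Among 39 other genes of the pathway, in a list of kinases, adaptors, exchange factors, lipid kinases, phosphatases and receptor chains, 641 regions lay in the windows. In LSK 172 were lower (26.8%) and 72 higher (11.2%), and in GMP 171 were lower (26.7%) and 91 higher (14.2%), both near the 23.9% and 24.1% lower and the 13.6% and 15.6% higher of the whole table. By locus sum, 12 of the 39 passed lower and 9 higher in each cell type, against 13.4% lower and 47.9% higher of all gene sums in LSK and 17.0% and 45.6% in GMP. By role, receptor chains had 13 of 36 regions lower and 2 higher in LSK, adaptors 56 of 169 and 21, exchange factors and lipases 23 of 76 and 10, PI3K 12 of 57 and 5, Src-family and related kinases 36 of 171 and 22, phosphatases and brakes 29 of 118 and 12, and the GTPase gene Rac2 3 of 14 and 0. At Blnk, the adaptor that links Syk to Btk and Plcg2 in B cells, 5 of 9 regions were lower in LSK and the sum changed by -0.97 ± 0.084 (SE, adjusted p = 1.96e-07). At Gab2, which recruits PI3K, 14 of 23 regions were lower in LSK and 13 in GMP. Ptprc, the CD45 phosphatase that activates Src kinases, had 7 of 13 regions lower and 0 higher in LSK, and a sum change of -0.85 ± 0.073 (SE, adjusted p = 1.81e-07).

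The genes whose summed accessibility followed each member most closely over the 12 libraries, among 17224 genes and outside 1 Mb of the member, were Bex6 (Pearson r = 0.991) and 4930444G20Rik (0.989) for Lyn, Olfr460 (0.989) and Gpr82 (0.988) for Syk, Hmga1 (0.992) and Lrrc25 (0.992) for Btk, and Fbxo32 (0.990) and B3gnt3 (0.989) for Fgr. Those of Vav1 were Slc39a13 (0.932) and Adcy7 (0.917) and those of Inpp5d Gm9925 (0.926) and Cwc22 (0.918). Psmd10 (0.905) was among those of Plcg2. The 12 libraries fall into 4 groups, so these values compare group means as well as single libraries. Among the members themselves, Lyn and Syk had an r of 0.885, and Lyn and Fgr an r of -0.931, the latter with the promoter of Ahdc1 in the sum.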

How the data were processed

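ATAC-seq was performed by the authors on sorted LSK and GMP with the OmniATAC protocol. Per the study's methods and the submitters' processing notes, reads were trimmed with cutadapt and aligned with Bowtie2 to GRCm38, duplicates and reads off the primary chromosomes were removed, peaks were called with Genrich per group and merged with bedtools, and reads in the merged regions were counted with featureCounts. The deposited values are raw counts of 121336 regions in 12 libraries, not normalized. The counted unit, fragments or single read ends, is not given in the sources used here. Since peaks came from the groups themselves, a region open in no group is absent from the table. The starts of the regions were read as 0-based and are printed 1-based.

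Counts were analysed with edgeR 4.0.16 in R 4.3.3 (TMM scaling, quasi-likelihood test, 1 coefficient per group, all 12 libraries, common biological coefficient of variation 0.185). The adjusted p is Benjamini-Hochberg over all regions, and log2 fold changes are printed with a standard error (SE). This SE was derived from the test, as the absolute log2 fold change divided by the square root of its F statistic. The fit was tested on simulated data. Contrasted were the genotypes (URE against WT) within each cell type, the step from LSK to GMP within each genotype, and the interaction, which subtracts the effect of the genotype in LSK from its effect in GMP. CPM were computed with TMM library sizes and are given for replicates 1, 2 and 3 in that order. In the deepest libraries 1 CPM rests on more counts, and intervals of single libraries would cover counting error only. A level of 3 counts was taken as the floor. Group and replicate numbers come from the labels. The p-values weigh a difference against the spread between these libraries, which was estimated over all 4 groups with information shared across regions.

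Named regions were, per gene, the own promoter region (within 500 bp of a start site) with most counts, the called region with the largest change in each direction in LSK, in GMP and in the WT step (at least 1 CPM in a group, libraries not overlapping, no other gene's start site), and the region with the smallest interaction p. Any other region described was chosen after its values were seen, and so were the shown sequences and GAGGAA. The members and gene lists were chosen with earlier results of these data known. Genes alike were ranked by Pearson r of log2 locus sums, for sums of at least 5 CPM.

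Deviations from the group mean were correlated between same-numbered libraries of WT-LSK and WT-GMP (0.181, 0.191 and 0.207), and between those of unlike number the values were -0.139 to -0.0413. For URE-LSK with URE-GMP the values were 0.0616, 0.273 and 0.113, but 0.114 for replicate 1 with 3. For WT-GMP with URE-GMP they were 0.0997, 0.205 and 0.349, but 0.135 for replicate 1 with 2. WT-LSK with URE-LSK had 0.102, 0.0625 and -0.0616. The main fit used no pairing, and a replicate block left the WT step at 47 calls. This block joins libraries of the same number across both genotypes. It thus joins WT replicate 3 (3 and 5 counts on chromosome Y) with URE replicate 3 (1254 and 964). A pairing by number within each genotype was not fitted, so the block cannot show what such a pairing would change. Alternatives covered DESeq2 1.42.0, other scalings, GC content offsets, filters, thresholds, windows, the replicate block and leaving out each library. No column of the table was left out. Some genes and sequences are not reported here.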

Additional observations from a re-analysis of the deposited data

Results flagged for a closer look

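The change between URE and WT differed between LSK and GMP, by edgeR's test of the interaction, at 14 of the named regions and at the locus sum of Syk. Regions were named in part for their small interaction p or their large genotype change, so the number 14 follows in part from that choice. Of all 158 regions 33 were called, against 14.0% of all regions of the table. The values are the log2 fold change in GMP minus that in LSK, so that a positive value at a lost region means less loss in GMP. In the Src-family genes the value was 2.99 (adjusted p = 1.39e-05) at the Lyn intron region 81.0 kb from its start and 2.07 (adjusted p = 0.0168) at the Lyn coding exon, where the call was lost without URE-GMP replicate 2. It was -1.68 (adjusted p = 0.000546) upstream of Lyn, 2.40 (adjusted p = 0.00759) at the Fgr intron region 15.1 kb from its start and 1.97 (adjusted p = 0.0151) at the Fgr intron region that was higher in GMP.

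At Syk the value was 2.17 (adjusted p = 2.4e-05) upstream of the gene and 0.69 (adjusted p = 0.000593) for the locus sum. It was -1.35 (adjusted p = 0.0423) past the end of Syk, a call that was lost for 9 of the 12 libraries when each was left out in turn, with values from -1.57 to -1.13. At Plcg2 it was 1.96 (adjusted p = 0.00157) and -1.78 (adjusted p = 0.0159) at the lost and the gained intron region. At Inpp5d it was 1.81 (adjusted p = 0.0126) at the lost intron region 18.1 kb from its start, -1.66 (adjusted p = 0.00833) at the one 32.4 kb in, and -1.26 (adjusted p = 0.00116) upstream. Beyond the end of Vav1 it was 3.09 (adjusted p = 3.86e-05) 19.2 kb and 2.69 (adjusted p = 0.00078) 10.2 kb past the gene.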

How the results depend on the processing

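The counts of called regions (63 in LSK, 58 in GMP, 47 in the WT step, 84 in the URE step and 33 for the interaction) moved with the threshold, the window and the filter on low levels. Within 5 kb of a start site 11, 9, 4, 12 and 5 were called. With glmTreat, where the threshold is part of the test, 32 were called in GMP, 26 in the WT step and 9 for the interaction. At a mean of at least 2 CPM 28 were called in GMP, 26 in the WT step and 54 in the URE step. With no fold threshold 102 were called in GMP and 74 in the WT step. Leaving out 1 library gave 59 to 68, 53 to 60, 39 to 50, 76 to 84 and 27 to 38 calls. Locus sums that passed, 3 in LSK and 4 in GMP, were 5 and 2 over gene bodies, 2 in GMP without start sites of other genes, and 3 to 4 and 2 to 4 with 1 library left out (2 without URE-GMP replicate 1, URE-GMP replicate 2 or WT-GMP replicate 3).

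The promoters of Lyn, Plcg2, Vav1 and Syk, in the cell types given here, were not called and changed sign under some alternatives. The Lyn promoter was at -0.0046 in LSK with loess offsets and at -0.19 to 0.033 in GMP with 1 library left out. The Plcg2 promoter was at 0.032 in LSK on autosomes only and at -0.14 to 0.026 with 1 library left out. The Vav1 promoter in LSK was at -0.029 with GC content offsets, -0.12 with library size only, -0.19 with loess offsets, -0.14 at a mean of at least 2 CPM, -0.052 with only the 2 groups compared, -0.028 with the replicate block and GC content offsets, and -0.11 to 0.0012 with 1 library left out. The Syk promoter in GMP was at -0.080 with GC content offsets, -0.11 with library size only, -0.17 with loess offsets, -0.055 at a mean of at least 2 CPM, -0.073 with the replicate block and GC content offsets, and -0.061 to 0.12 with 1 library left out. Among locus sums in LSK, Fgr was at -1.18 over the gene body and -0.56 without start sites of other genes, Btk at -1.56, -0.50 and, with library size only, -0.052, Plcg2 at -0.058 with library size only and Vav1 at 0.18 over the gene body. In GMP, Btk was at -0.74 over the gene body and -0.045 without start sites of other genes, Plcg2 at -0.049 with library size only and Vav1 at 0.10 over the gene body. For windows the other set of regions is the cause by construction, and elsewhere the cause was not tested.

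With the replicate block 62, 58, 47, 84 and 35 regions were called. It made the Inpp5d locus sum in LSK pass (adjusted p = 0.0215) and ended the call of the Lyn region at 3771748 in LSK (adjusted p = 0.0531), and it changed no other call of the 99 values tested. All-region median log2 fold changes were 0.14 in LSK and 0.055 in GMP, 0.017 and -0.064 with library size only, and 0.27 and 0.17 with GC content offsets. Regions under 1 CPM rest on few counts, and large ratios there are imprecise.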

Other observations

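Among the 3 URE libraries of a cell type, replicate 2 had the highest CPM at 36 of the 51 regions lower in URE-LSK (70.6%) and at 34 of the 38 lower in URE-GMP (89.5%). Across all regions called lower in the table the shares were 53.7% and 63.0%. The URE replicate 2 libraries were those with 5 counts on chromosome Y, while the other URE libraries had 964 to 1684, and the part of this difference in the residual accessibility was not tested. At the Lyn intron region 81.0 kb from the start of the gene, for example, URE-GMP replicate 2 had 6.57 CPM against 4.95 and 5.23 in replicates 1 and 3.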
